A study of Mus musculus with 8 samples.

Results

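Autophagy genes of mouse bone marrow-derived macrophages were followed across a PTIP genotype and a response to lipopolysaccharide (LPS), a bacterial cell wall component. The 42 genes were chosen by symbol, as genes of autophagy initiation, conjugation, cargo reception and mTORC1 control, from a table of 55226 genes. RNA was sequenced from macrophages grown out of the bone marrow of C57BL/6 mice with the growth factor M-CSF. The mice were PtipWT (WT) or PtipcKO (cKO), a conditional knockout of PTIP, which Paxip1 encodes. Cells received LPS at 100 ng/ml for 6 h or were harvested at 0 h, which gave 4 groups of 2 samples: WT at 0 h, WT after LPS, cKO at 0 h and cKO after LPS. The sources used here give neither the driver of the deletion, nor the age and sex of the mice, nor a link between a replicate number and a mouse. The series text calls the replicates biological. P-values measure only the spread between these samples.

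Values are regularised log2 expression values (rlog), which pull genes with few reads toward their mean and carry no correction for gene length. They were therefore compared between samples of 1 gene and not between genes. A difference of 1 is a doubling on this scale, which understates changes of genes with few reads. A mean rlog of 3 or more was required for testing, which kept 11543 genes of the table, all 42 autophagy genes among them. Each difference below is a log2 difference from a limma model with its standard error (SE), and a gene is called at a Benjamini-Hochberg adjusted p under 0.05 over the 11543 genes. Without read counts the sequencing depth is unknown.

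Paxip1, the deleted gene, was lower in the 4 cKO samples than in the 4 WT samples. It read 4.50 and 4.50 at 0 h and 3.82 and 4.08 after LPS in WT, and 2.54 and 2.48 at 0 h and 2.54 and 2.63 after LPS in cKO. At 0 h the cKO minus WT difference was -1.99 (SE 0.18, adjusted p = 0.00686), and after LPS it was -1.37 (SE 0.18, adjusted p = 0.0156). Each call was lost under 3 of 15 alternatives (adjusted p up to 0.0732 and 0.15). All 8 macrophage markers were tested and their mean ran from 12.37 to 13.70 over the 8 samples, while 8 of 40 markers of 7 other cell types were tested. In each group the 2 samples correlated at 0.987 to 0.992 across genes, and the median gap between them over the 42 genes was 0.126 to 0.218.

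Autophagy encloses cytoplasm, organelles or microbes in a double membrane and delivers them to the lysosome. A kinase complex around ULK1 starts the process under control of the kinase complex mTORC1, a class III PI3-kinase complex marks the membrane with the lipid PI3P, and a pair of conjugation reactions attaches ATG8 proteins such as LC3 to the growing membrane, where receptors tether their cargo. Macrophages use it to capture bacteria and damaged organelles, and share part of the conjugation machinery with LC3-associated phagocytosis.

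TFEB, TFE3 and MITF, transcription factors known for inducing lysosomal and autophagy genes, bind a palindrome with the core CACGTG, an E-box. In the RefSeq promoter table (GRCm38.p6, from 250 bases before to 50 after a gene's start), 36 of the 42 genes were listed. The letters CACGTG read the same on both strands. They were found in a window of 5 of those 36 genes (13.9%: Atg3, Atg5, Atg7, Atg14 and Rubcn). Of the 27025 genes of the table, 2187 had them in a window (8.09%). The longer form is CACGTG directly preceded by GT and followed by AC. It was found for none of the 36 genes and for 100 genes of the table (0.37%). A match describes these letters and is not a measured binding site. The stretches upstream of the start are shown for Atg3 and Atg5, genes of the same conjugation pathway, because Atg5 fell with LPS while Atg3 was not called and differed most of the 42 between the cKO replicates. Capitals mark CACGTG, and both run 5′ to 3′ on the plus strand of GRCm38.
Atg3, chr16:45158579-45158784: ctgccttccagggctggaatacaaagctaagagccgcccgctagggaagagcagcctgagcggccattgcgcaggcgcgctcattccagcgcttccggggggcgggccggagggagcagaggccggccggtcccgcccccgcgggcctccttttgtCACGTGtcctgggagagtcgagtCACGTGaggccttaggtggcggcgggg
Atg5, chr10:44268089-44268338: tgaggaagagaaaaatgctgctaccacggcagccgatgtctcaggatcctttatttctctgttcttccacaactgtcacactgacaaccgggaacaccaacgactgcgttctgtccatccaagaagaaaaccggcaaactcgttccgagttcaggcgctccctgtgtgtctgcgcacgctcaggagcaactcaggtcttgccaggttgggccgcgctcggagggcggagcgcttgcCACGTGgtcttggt
The Atg3 stretch holds 2 copies of the core, 94 and 71 bases before the RefSeq start, and that of Atg5 holds 1 copy, 14 bases before it. The Atg5 stretch ends just before its RefSeq start. That of Atg3 ends earlier, just before the start given by GENCODE (45158785), which lies upstream of the RefSeq start.

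LPS for 6 h moved autophagy genes in both directions. In WT cells 10 of the 42 rose and 13 fell, 54.8% of them, where 42.2% of all tested genes were called, 22.5% higher and 19.7% lower. In cKO cells 10 rose and 10 fell, 47.6%, where 37% of all tested genes were called, 19.6% higher and 17.5% lower. Quantile normalization moved the balance toward lower calls, with 6 of the 42 higher and 15 lower in WT (2220 and 2771 of all tested genes) and 10 higher and 12 lower in cKO (2012 and 2501). The median difference of the 42 was -0.13 in WT and -0.04 in cKO, beside -0.01 and -0.02 over all tested genes. The 42 differences ran from -1.29 to 1.54 in WT and from -1.08 to 1.26 in cKO, and the 2 groups of samples did not overlap for 32 genes in each genotype (76.2%, against 71.3% and 72.5% of all tested genes). In bulk RNA, fewer cells of a type and less RNA per cell cannot be told apart.

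**Figure D1:**
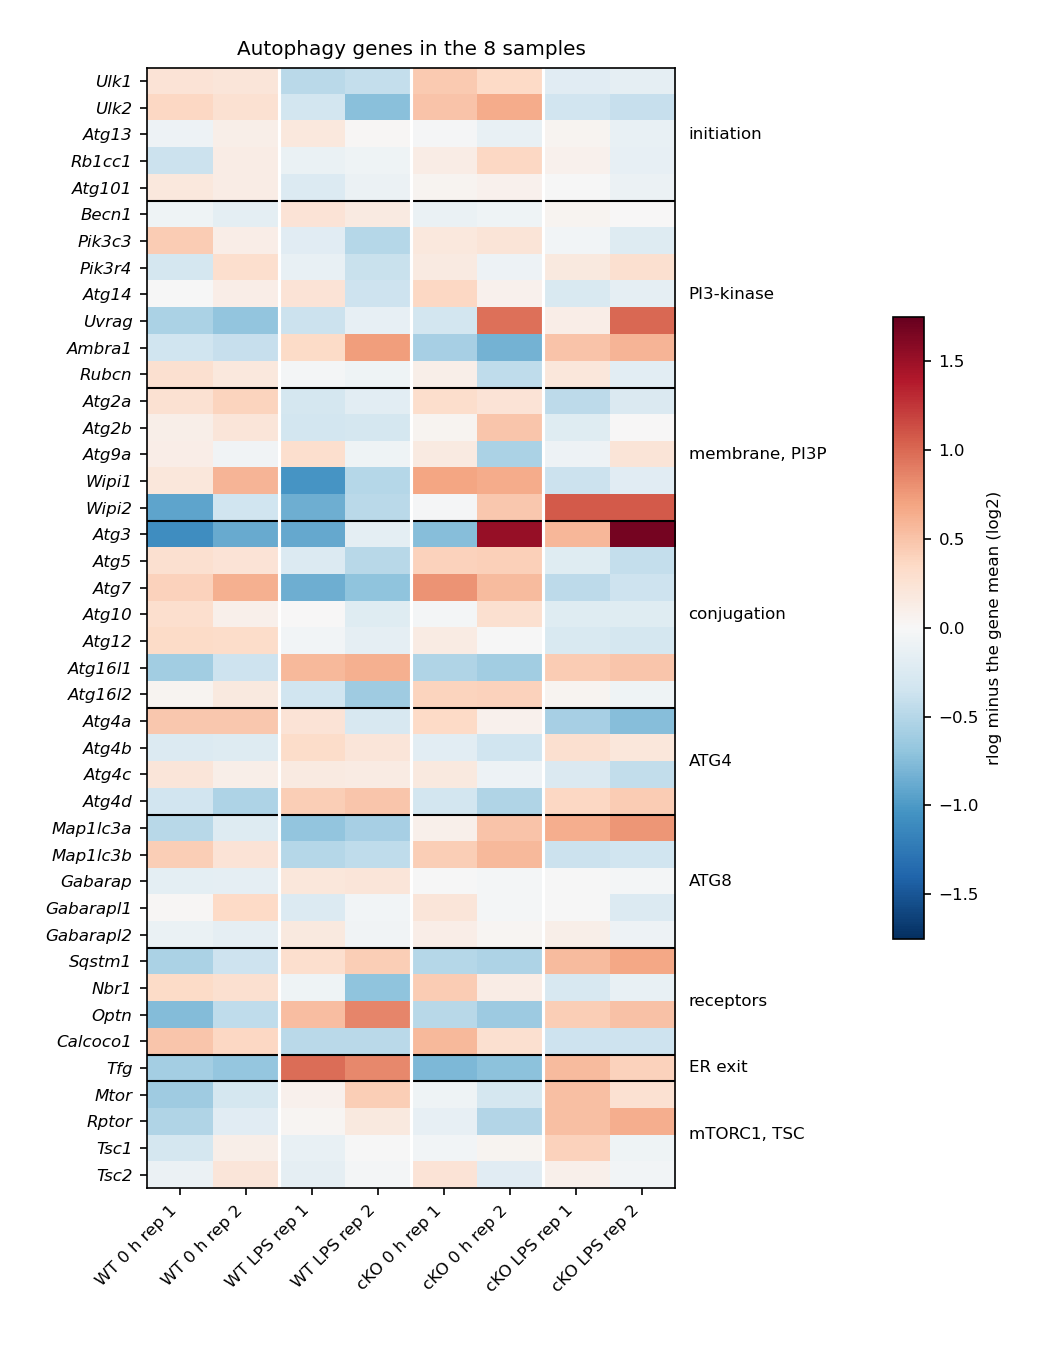
Heatmap of the 42 autophagy genes (rows, grouped by role) in the 8 samples (columns); colour is rlog minus the gene's mean over the 8 samples, in log2 units. Atg7, Map1lc3b and Calcoco1 were lower and Tfg, Optn and Atg16l1 higher in the 4 LPS samples, and Wipi2 and Map1lc3a were higher in the 4 cKO samples than in the 4 WT samples.

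Both genotypes shared most of these calls. Sharing was not counted over all tested genes, so it is not read as particular to the 42. Called higher in both were 8 genes, Ambra1, Atg16l1, Atg4b, Atg4d, Sqstm1, Optn, Tfg and Mtor. Called lower in both were 9, Ulk1, Ulk2, Atg2a, Wipi1, Atg5, Atg7, Atg12, Map1lc3b and Calcoco1. Another 6 were called in WT alone (Becn1 and Gabarap higher, Atg101, Pik3c3, Atg16l2 and Nbr1 lower) and 3 in cKO alone (Wipi2 and Rptor higher, Atg4a lower), 16 were called in neither, and none had opposite calls. A call in 1 genotype alone does not show a difference between them. The interaction is the LPS change in cKO minus that in WT. It was called for none of the 42 and for none of the 11543 genes (0%). At an unadjusted p under 0.05 in the limma model there were 2 and 751. With 2 samples per group, this does not show that the responses were equal.

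**Figure D2:**
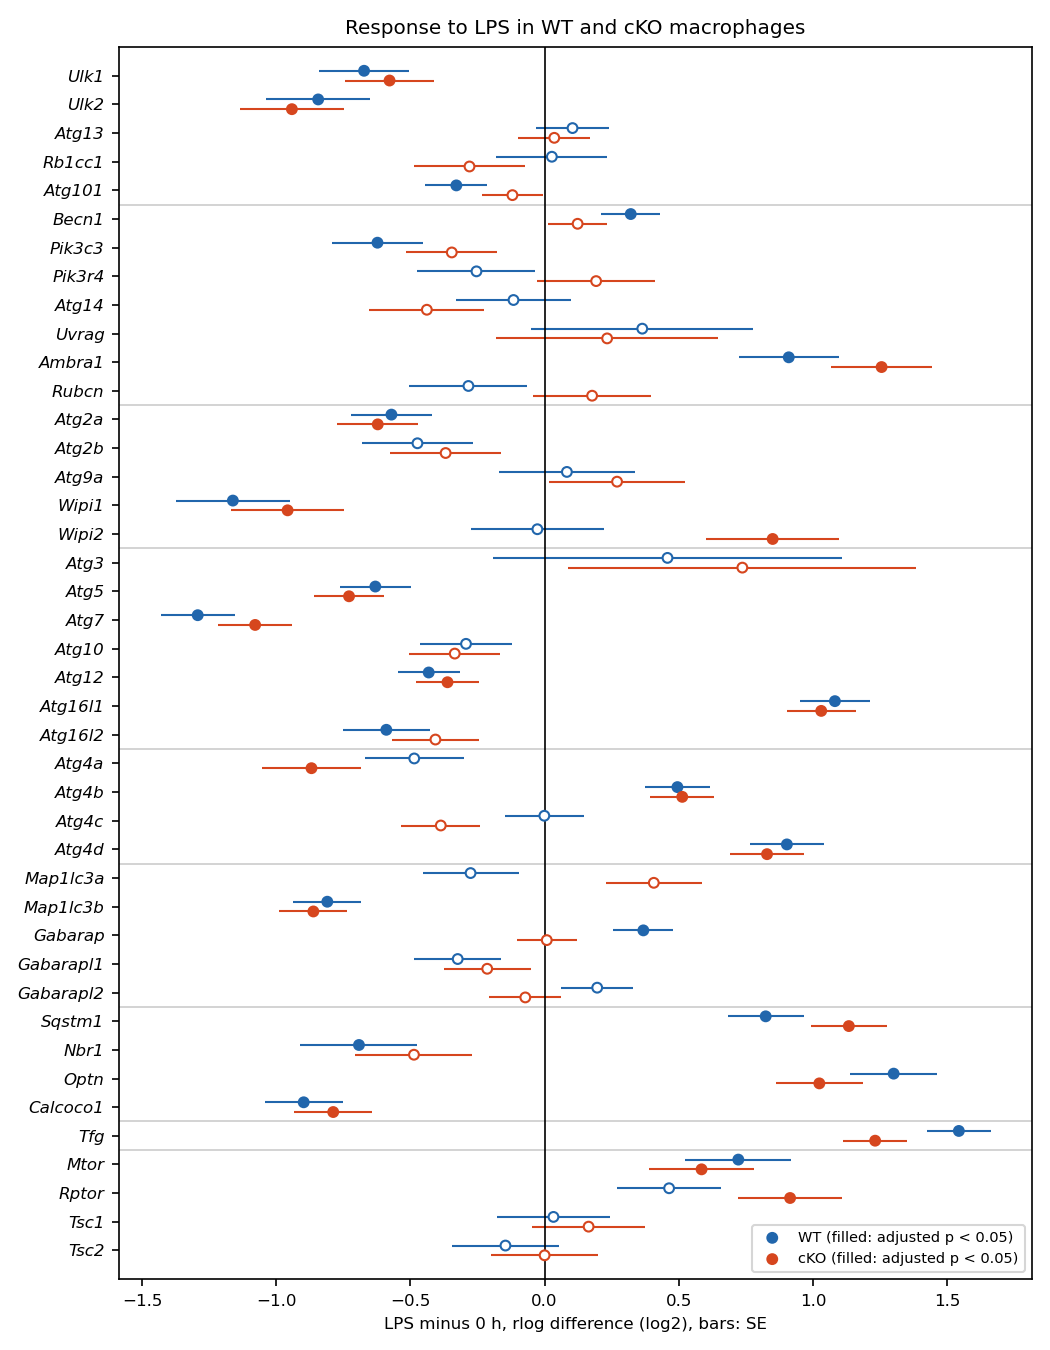
LPS minus 0 h difference (log2, x axis) for each autophagy gene (y axis) in WT and cKO; points are limma estimates from 2 samples per group, bars are the SE, and filled points are called. Tfg, Optn, Atg16l1 and Ambra1 lie at the right and Atg7 and Wipi1 at the left in both genotypes.

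Of the initiation kinase complex, 3 of 5 genes fell in WT and 2 in cKO, and none rose. Ulk2, a kinase related to ULK1, read 5.63 and 5.54 at 0 h and 4.94 and 4.54 after LPS in WT, and 5.76 and 5.92 at 0 h and 4.94 and 4.86 after LPS in cKO. In each genotype both LPS samples lay below both 0 h samples. Ulk2 fell by 0.84 (SE 0.20, adjusted p = 0.00851) in WT and by 0.94 (SE 0.20, adjusted p = 0.00598) in cKO. Ulk1, the kinase that phosphorylates the rest of the complex, fell by 0.67 (SE 0.17, adjusted p = 0.0119) in WT and by 0.58 (SE 0.17, adjusted p = 0.026) in cKO. Atg101, which stabilises ATG13, fell by 0.33 (SE 0.12, adjusted p = 0.0483) in WT and differed by -0.12 (SE 0.12, adjusted p = 0.454) in cKO, where quantile normalization gave a lower call at -0.38 (adjusted p = 0.0332). The scaffold Rb1cc1 and the adaptor Atg13 were not called in either genotype, with differences between -0.28 and 0.10. The cKO call of Ulk2 held under all 17 alternatives, the highest adjusted p being 0.042. The WT call of Ulk2 was lost without WT LPS replicate 2 (adjusted p = 0.0515), that of Ulk1 without WT 0 h replicate 1 or WT LPS replicate 1 (0.0563 and 0.0512), and that of Atg101 under 15 of 17 alternatives, up to 0.176, while quantile normalization gave -0.59 (0.00405). In cKO the call of Ulk1 was lost without any 1 of the 4 cKO libraries (adjusted p from 0.0701 to 0.119).

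Of the class III PI3-kinase complex and its regulators, 2 of 7 genes rose and 1 fell in WT, and 1 rose in cKO. Ambra1, a regulator that binds beclin 1 and ULK1, read 6.02 and 5.96 at 0 h and 6.70 and 7.10 after LPS in WT, and 5.79 and 5.54 at 0 h and 6.88 and 6.97 after LPS in cKO. All 4 LPS samples lay above all 4 samples at 0 h. Ambra1 rose by 0.91 (SE 0.19, adjusted p = 0.00489) in WT and by 1.26 (SE 0.19, adjusted p = 0.00118) in cKO. Pik3c3, the lipid kinase itself, fell by 0.62 (SE 0.17, adjusted p = 0.0177) in WT, a call lost without the low-value filter (adjusted p = 0.0519), without WT 0 h replicate 1 (0.116) and without WT LPS replicate 2 (0.092), and differed by -0.35 (SE 0.17, adjusted p = 0.145) in cKO. Becn1, which encodes beclin 1, was called higher in WT at 0.32 (SE 0.11, adjusted p = 0.0451), but it turned to -0.15 under quantile normalization (adjusted p = 0.267) and lost its call under 12 further alternatives, up to 0.169. In cKO it differed by 0.12 (SE 0.11, adjusted p = 0.419), and by -0.25 under quantile normalization (adjusted p = 0.0931). Pik3r4, Atg14, Uvrag and Rubcn, the subunits and the inhibitor of the complex, were not called in either genotype, with differences between -0.44 and 0.36.

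Of the genes for membrane delivery and PI3P reading, 2 of 5 fell in both genotypes and 1 rose in cKO. Wipi1, a protein that binds PI3P, read 7.62 and 8.02 at 0 h and 6.39 and 6.92 after LPS in WT, and 8.11 and 8.07 at 0 h and 7.04 and 7.22 after LPS in cKO. All 4 LPS samples lay below all 4 samples at 0 h. Wipi1 fell by 1.16 (SE 0.21, adjusted p = 0.00268) in WT and by 0.96 (SE 0.21, adjusted p = 0.00816) in cKO, the latter with an adjusted p of 0.0583 without cKO LPS replicate 1. The lipid transfer gene Atg2a fell by 0.57 (SE 0.15, adjusted p = 0.0155) in WT and by 0.62 (SE 0.15, adjusted p = 0.0124) in cKO. Its calls were lost without WT 0 h replicate 2 (adjusted p = 0.0828), WT LPS replicate 1 (0.0678), cKO 0 h replicate 1 (0.0643) or cKO LPS replicate 1 (0.087). Wipi2, a paralog of Wipi1, differed by -0.03 (SE 0.25, adjusted p = 0.941) in WT and rose by 0.85 (SE 0.25, adjusted p = 0.0267) in cKO, a call lost without the low-value filter (0.11) and without cKO 0 h replicate 1 (0.151), cKO LPS replicate 1 (0.102) or cKO LPS replicate 2 (0.11). The interaction of Wipi2 was 0.88 (SE 0.35, adjusted p = 0.734). Atg2b and Atg9a, the membrane scramblase, were not called, with differences between -0.47 and 0.27.

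The conjugation machinery moved in parts. In WT 1 of 7 genes rose and 4 fell, and in cKO 1 rose and 3 fell. Atg7, the E1-like enzyme that activates both ATG12 and ATG8 proteins, read 9.89 and 10.11 at 0 h and 8.63 and 8.78 after LPS in WT, and 10.27 and 10.04 at 0 h and 9.03 and 9.12 after LPS in cKO. All 4 LPS samples lay below all 4 samples at 0 h, a gap of 1.08 or more between the group means of each genotype. Atg7 fell by 1.29 (SE 0.14, adjusted p = 0.000162) in WT and by 1.08 (SE 0.14, adjusted p = 0.000561) in cKO. Atg16l1, which places the conjugating enzyme on the membrane, read 8.04 and 8.28 at 0 h and 9.21 and 9.27 after LPS in WT, and 8.12 and 8.04 at 0 h and 9.09 and 9.14 after LPS in cKO. Again the 4 LPS samples stood apart, here above the 4 at 0 h. Atg16l1 rose by 1.08 (SE 0.13, adjusted p = 0.000285) in WT and by 1.03 (SE 0.13, adjusted p = 0.000494) in cKO.

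Atg16l2, its paralog, went the other way in WT, where it fell by 0.59 (SE 0.16, adjusted p = 0.0192), a call lost without WT 0 h replicate 1 (adjusted p = 0.0513), WT 0 h replicate 2 (0.0942) or WT LPS replicate 2 (0.0985) and with only the contrast's groups (0.0536). It differed by -0.41 (SE 0.16, adjusted p = 0.0831) in cKO. Atg5, the partner that ATG12 is joined to, fell by 0.63 (SE 0.13, adjusted p = 0.00529) in WT and by 0.73 (SE 0.13, adjusted p = 0.00311) in cKO. Atg12 fell by 0.43 (SE 0.12, adjusted p = 0.0171) in WT and by 0.36 (SE 0.12, adjusted p = 0.0393) in cKO. Its WT call was lost under 4 of 17 alternatives, up to 0.0695 without WT LPS replicate 2, and its cKO call under 8 of 17, up to 0.188 without cKO 0 h replicate 1, while quantile normalization gave -0.67 and -0.57. The E2-like enzymes Atg3 and Atg10 were not called in either genotype, with differences between -0.34 and 0.74.

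The ATG4 proteases, which trim ATG8 proteins and free them from the membrane, were split. Atg4d read 8.04 and 7.84 at 0 h and 8.81 and 8.87 after LPS in WT, and 8.06 and 7.85 at 0 h and 8.75 and 8.83 after LPS in cKO, with all LPS samples above all samples at 0 h. Atg4d rose by 0.90 (SE 0.14, adjusted p = 0.00103) in WT and by 0.83 (SE 0.14, adjusted p = 0.00202) in cKO. Atg4b rose by 0.50 (SE 0.12, adjusted p = 0.0109) in WT, with an adjusted p of 0.074 under quantile normalization, and by 0.51 (SE 0.12, adjusted p = 0.0109) in cKO, with 0.0695 without cKO 0 h replicate 2 and 0.0759 without cKO LPS replicate 1. Atg4a stood opposite to these paralogs. It read 9.14 and 9.14 at 0 h and 8.91 and 8.40 after LPS in WT, and 9.02 and 8.74 at 0 h and 8.09 and 7.93 after LPS in cKO, so the LPS samples lay below the 0 h samples of their genotype. Atg4a fell by 0.87 (SE 0.18, adjusted p = 0.0068) in cKO, a call lost without cKO LPS replicate 2 (adjusted p = 0.0544), and differed by -0.49 (SE 0.18, adjusted p = 0.064) in WT, where quantile normalization gave a lower call at -0.64 (adjusted p = 0.023). Atg4c was not called, at -0.001 in WT and -0.39 in cKO.

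Among the ATG8 genes, whose proteins carry the lipid anchor that labels autophagosomes, 1 of 5 fell in both genotypes. Map1lc3b, which encodes LC3B, read 12.51 and 12.33 at 0 h and 11.59 and 11.63 after LPS in WT, and 12.51 and 12.65 at 0 h and 11.71 and 11.73 after LPS in cKO. The 4 LPS samples were the lowest 4. Map1lc3b fell by 0.81 (SE 0.13, adjusted p = 0.00124) in WT and by 0.86 (SE 0.13, adjusted p = 0.00114) in cKO, and by 1.48 and 1.44 under quantile normalization. Gabarap was called higher in WT at 0.37 (SE 0.11, adjusted p = 0.0281), but turned to -0.21 under quantile normalization (adjusted p = 0.179) and lost its call under 8 further alternatives, up to 0.1; in cKO it differed by 0.01 (SE 0.11, adjusted p = 0.961), and was called lower under quantile normalization at -0.49 (adjusted p = 0.0121). Map1lc3a, Gabarapl1 and Gabarapl2 were not called, with differences between -0.32 and 0.41. Under quantile normalization Gabarapl1 was called lower in WT at -0.69 (adjusted p = 0.017), with -0.53 in cKO (adjusted p = 0.0515).

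Receptors also moved in opposite directions, 2 of 4 rising and 2 falling in WT, and 2 rising and 1 falling in cKO. Optn, a receptor for ubiquitin-coated bacteria and mitochondria, read 7.67 and 7.98 at 0 h and 8.98 and 9.28 after LPS in WT, and 7.95 and 7.80 at 0 h and 8.86 and 8.94 after LPS in cKO. All LPS samples lay above all samples at 0 h, and Optn rose by 1.30 (SE 0.16, adjusted p = 0.000347) in WT and by 1.02 (SE 0.16, adjusted p = 0.00157) in cKO. Sqstm1, which encodes the receptor p62, itself an autophagy substrate, read 12.76 and 12.94 at 0 h and 13.60 and 13.74 after LPS in WT, and 12.81 and 12.77 at 0 h and 13.87 and 13.98 after LPS in cKO. Here too the 4 LPS samples were the highest. Sqstm1 rose by 1.13 (SE 0.14, adjusted p = 0.000485) in cKO and by 0.82 (SE 0.14, adjusted p = 0.00196) in WT, but quantile normalization left 0.60 (adjusted p = 0.0111) and 0.03 (adjusted p = 0.881).

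Calcoco1, a receptor for the endoplasmic reticulum, read 8.03 and 7.91 at 0 h and 7.07 and 7.07 after LPS in WT, and 8.11 and 7.82 at 0 h and 7.18 and 7.18 after LPS in cKO. The LPS samples were lowest in both genotypes, and Calcoco1 fell by 0.90 (SE 0.15, adjusted p = 0.00147) in WT and by 0.79 (SE 0.15, adjusted p = 0.00349) in cKO. Nbr1, a receptor related to p62, read 7.68 and 7.63 at 0 h and 7.29 and 6.65 after LPS in WT, and 7.80 and 7.48 at 0 h and 7.08 and 7.23 after LPS in cKO. The second WT LPS sample was the lowest of the 8. Nbr1 fell by 0.69 (SE 0.22, adjusted p = 0.0326) in WT, a call lost under 7 of 17 alternatives, up to 0.171 without WT LPS replicate 2, where the fall was by 0.37, and differed by -0.49 (SE 0.22, adjusted p = 0.115) in cKO.

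Tfg, a protein of endoplasmic reticulum exit sites, had the largest rise of the 42 in WT. It read 9.71 and 9.63 at 0 h and 11.28 and 11.15 after LPS in WT, and 9.52 and 9.58 at 0 h and 10.86 and 10.71 after LPS in cKO. Both cKO LPS samples lay below both WT LPS samples and above all samples at 0 h. Tfg rose by 1.54 (SE 0.12, adjusted p = 3.31e-05) in WT and by 1.23 (SE 0.12, adjusted p = 0.000132) in cKO, and the cKO against WT difference after LPS was -0.43 (SE 0.12, adjusted p = 0.0796).

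Of mTORC1, which restrains initiation when nutrients are plentiful, Rptor, its scaffold, read 5.77 and 6.10 at 0 h and 6.33 and 6.47 after LPS in WT, and 6.15 and 5.78 at 0 h and 6.82 and 6.94 after LPS in cKO. Both LPS samples lay above both 0 h samples in each genotype. Rptor rose by 0.92 (SE 0.20, adjusted p = 0.00693) in cKO, with 0.0508 without cKO LPS replicate 2, and differed by 0.46 (SE 0.20, adjusted p = 0.0885) in WT. Mtor, the kinase, rose by 0.72 (SE 0.20, adjusted p = 0.0182) in WT and by 0.59 (SE 0.20, adjusted p = 0.0471) in cKO. Its WT call was lost without the low-value filter (adjusted p = 0.0574), WT 0 h replicate 1 (0.112) or WT LPS replicate 2 (0.101), and its cKO call under 9 of 17 alternatives, up to 0.225 without cKO LPS replicate 1. Tsc1 and Tsc2, which inhibit mTORC1, were not called, with differences between -0.15 and 0.16.

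**Figure D3:**
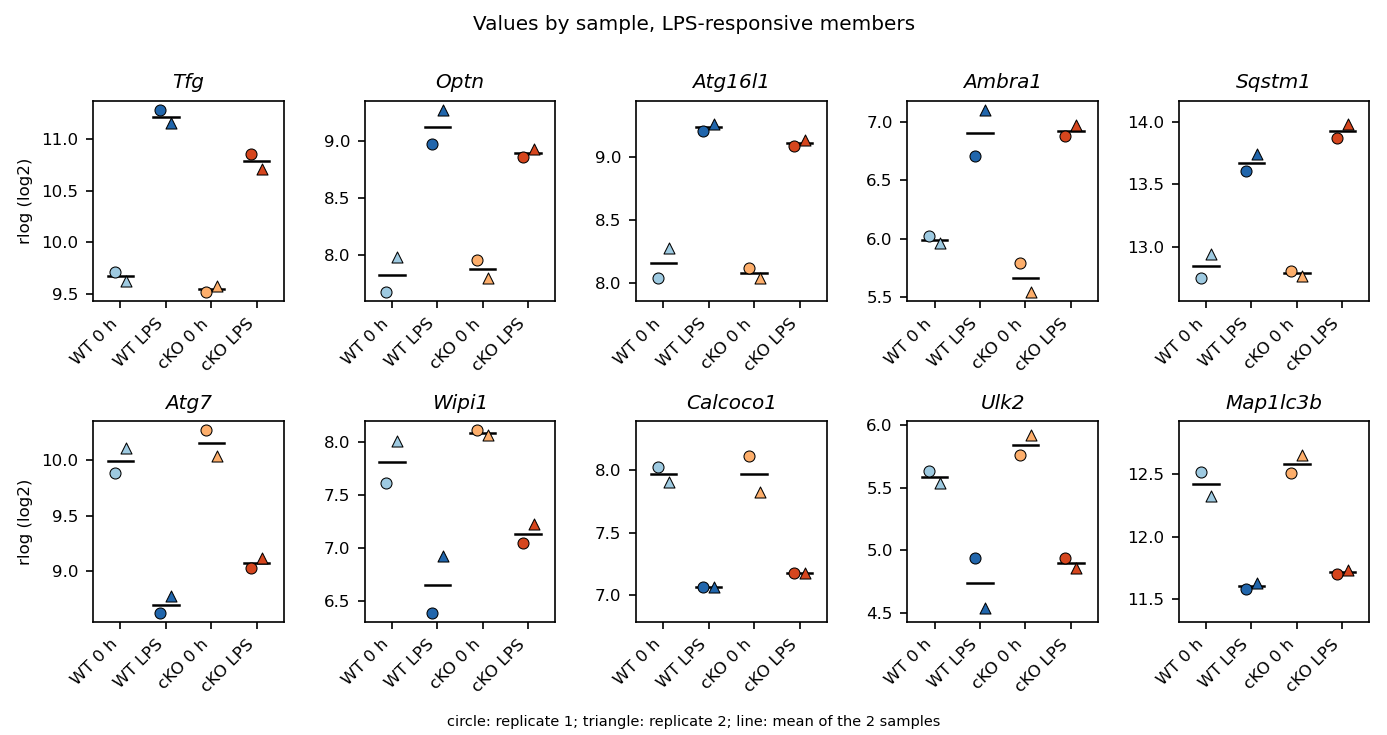
Rlog (log2, y axis) of 10 autophagy genes in each sample at 0 h and after LPS (x axis), WT and cKO; each point is 1 sample. In each of the 10 genes the LPS samples lie on 1 side of the 0 h samples of the same genotype. The 10 were all called with LPS in both genotypes, so this order adds nothing to the calls. It held for 71.3% of all tested genes in WT and 72.5% in cKO.

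In both genotypes 9 LPS calls held under all 17 alternatives run, those of Ambra1, Atg16l1, Atg4d, Atg5, Atg7, Calcoco1, Map1lc3b, Optn and Tfg. The same count was not made over all tested genes. Quantile normalization lowered the LPS change of genes whose mean rlog was 10 or more, 5 of the 42 among them, by a median of 0.53 in WT and 0.38 in cKO. Of 8 neutrophil markers 2 were tested and Retnlg was listed at 0. Their mean ran from 1.46 to 1.85 at 0 h and from 1.82 to 2.45 after LPS in WT, and from 1.66 to 1.81 and from 1.92 to 2.33 in cKO, and Camp read 3.71 to 4.70 at 0 h and 4.89 to 6.52 after LPS. Other lists with tested markers also moved. In WT the mast cell and basophil mean ran from 1.83 to 2.04 at 0 h and from 2.13 to 2.68 after LPS. The dendritic cell mean ran from 1.55 to 1.63 and from 1.77 to 2.09 there. In cKO both of these means overlapped between the times. The B cell mean was lower after LPS in WT (0.20 to 0.21, from 0.40 to 0.49) and in cKO (0.08 to 0.40, from 0.53 to 0.58). The part of such cells in these results was not tested. Exon bases are shared with a gene on the opposite strand by 15 of the 42, Sqstm1, Optn, Map1lc3b, Atg4d and Uvrag among them, and the strand setting is not given in the sources used here, so reads of the partners cannot be told apart.

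Of the other genes of the pathway that LPS changed, more fell than rose. Of 69 genes listed (other receptors, the mTORC1 and AMPK pathway, transcriptional regulators, and fusion factors), 65 were tested, and 7 rose and 20 fell in WT, 4 rose and 21 fell in cKO. Called were thus 41.5% of the 65 in WT and 38.5% in cKO, near the 42.2% and 37% of all tested genes. Lower calls made up 30.8% and 32.3% of the 65, against 19.7% and 17.5% of all tested genes. The medians of the 65 were -0.18 and -0.25. In WT the largest falls were those of Sesn1 (-3.48, adjusted p = 1.27e-05), a stress-induced inhibitor of mTORC1, Deptor (-2.80, adjusted p = 9.78e-05), an inhibitor of mTOR, and Foxo3 (-2.26, adjusted p = 0.00266), a factor that induces autophagy genes. In cKO the largest falls were those of Deptor (-2.75), Sesn1 (-2.21) and Foxo3 (-1.65), the last with an adjusted p up to 0.0928 under 4 of 17 alternatives. The largest rises in WT were Mitf (0.92, adjusted p = 0.00115), Tbk1 (0.91, adjusted p = 0.000503, and 0.45 under quantile normalization), the kinase that phosphorylates OPTN, and Tax1bp1, a receptor (0.76, adjusted p = 0.000899, and 0.15 under quantile normalization, adjusted p = 0.316). In cKO they were Tbk1 (0.94), Mitf (0.83) and Vamp8 (0.73, and 0.17 under quantile normalization, adjusted p = 0.315), a fusion SNARE.

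In cKO against WT macrophages, 2 of the 42 genes were higher. At 0 h none was called, where 0.251% of all tested genes were (0.052% higher, 0.199% lower), with 3 of the 42 (Wipi2, Map1lc3a and Uvrag) and 1256 of all 11543 at an unadjusted p under 0.05. After LPS, Wipi2 and Map1lc3a were called higher and none lower, 4.76% of the 42, where 3.97% of all tested genes were called, 1.51% higher and 2.46% lower (174 and 284 genes, or 115 and 120 under quantile normalization). Averaged over both times the same 2 were called (7.02% of all tested genes, 2.88% higher and 4.14% lower), and the median difference of the 42 was 0.06, beside -0.02 over all tested genes. The differences of the 42 ran from -0.40 to 1.37 at 0 h and from -0.64 to 1.74 after LPS.

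Wipi2 read 6.12 and 6.71 at 0 h and 6.19 and 6.58 after LPS in WT, and 7.03 and 7.52 at 0 h and 8.12 and 8.13 after LPS in cKO. All 4 cKO samples lay above all 4 WT samples, which held for 3.16% of all tested genes, and the reverse order, found for none of the 42, held for 2.64%. WIPI2, which binds PI3P, recruits ATG16L1 to the membrane (gene at chr5:142627698-142670588 of GRCm38, plus strand). The difference was 0.86 (SE 0.25, adjusted p = 0.264) at 0 h, 1.74 (SE 0.25, adjusted p = 0.0156) after LPS and 1.30 (SE 0.18, adjusted p = 0.0069) averaged.

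Map1lc3a, which encodes LC3A, a paralog of LC3B, lies at chr2:155276297-155278073 on the plus strand. It read 6.88 and 7.15 at 0 h and 6.69 and 6.80 after LPS in WT, and 7.46 and 7.87 at 0 h and 8.01 and 8.14 after LPS in cKO. Again all 4 cKO samples lay above all 4 WT samples. The difference was 0.65 (SE 0.18, adjusted p = 0.246) at 0 h, 1.33 (SE 0.18, adjusted p = 0.0156) after LPS and 0.99 (SE 0.13, adjusted p = 0.0069) averaged. LC3B did not follow: Map1lc3b differed between the genotypes by 0.16 at 0 h and 0.11 after LPS, with neither called.

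**Figure D4:**
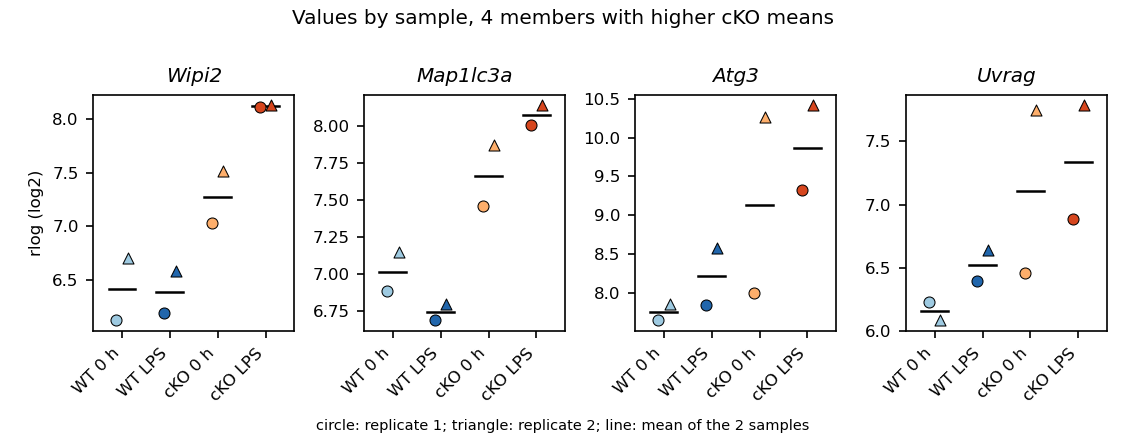
Rlog (log2, y axis) of Wipi2, Map1lc3a, Atg3 and Uvrag in each of the 8 samples, by genotype and time (x axis); each point is 1 sample. Wipi2 and Map1lc3a are higher in all 4 cKO samples, while Atg3 and Uvrag are highest in the second cKO replicate at both times.

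Atg3, the E2-like enzyme that joins ATG8 proteins to lipid, and Uvrag, a subunit of the PI3-kinase complex, were singled out after their values were seen. Atg3 read 7.65 and 7.86 at 0 h and 7.85 and 8.58 after LPS in WT, and 8.002 and 10.26 at 0 h and 9.33 and 10.41 after LPS in cKO. The second cKO replicate was the highest at both times and the first cKO sample at 0 h lay within the range of the 4 WT samples. The difference was 1.37 (SE 0.65, adjusted p = 0.495) at 0 h, 1.65 (SE 0.65, adjusted p = 0.186) after LPS and 1.51 (SE 0.46, adjusted p = 0.09) averaged. Without cKO 0 h replicate 1, the lower of that pair (8.002 and 10.26), Atg3 was called at 0 h (2.51) and averaged (2.08). After LPS it was called without cKO 0 h replicate 1 or 2. Each of these fits left a lone cKO sample at 0 h and so left out the spread of that pair. Over the 16 alternatives the Atg3 difference ran from 0.24 to 2.51 at 0 h. It ran from 1.11 to 2.20 after LPS and from 0.95 to 2.08 averaged. The authors' deposited table calls Atg3 after LPS, with a log2 fold change of 1.96 (adjusted p = 8.45e-06). Uvrag read 6.23 and 6.08 at 0 h and 6.40 and 6.64 after LPS in WT, and 6.46 and 7.75 at 0 h and 6.89 and 7.79 after LPS in cKO. It too was highest in the second cKO replicate, and it differed by 0.88 (SE 0.29, adjusted p = 0.115) averaged.

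Both genotype calls after LPS rested on few samples. Leaving out a sample of the groups compared leaves a lone sample in its group, for every tested gene. Over the 16 alternatives the difference after LPS ran from 1.54 to 1.93 for Wipi2 and from 1.27 to 1.40 for Map1lc3a. The adjusted p of Wipi2 reached 0.0768, 0.104 and 0.157, and that of Map1lc3a 0.073, 0.0948 and 0.157, without WT LPS replicate 1, cKO LPS replicate 1 and cKO LPS replicate 2 in turn (Wipi2 also 0.07 without the low-value filter), while the averaged calls held under 15 of 16 alternatives. They were lost in the other, chosen after seeing the data, in which both times of each genotype and replicate number were averaged first and 2 means per genotype compared (adjusted p = 0.0576 for Wipi2 and 0.0571 for Map1lc3a). Of the 8 neutrophil markers, S100a8, also made by macrophages, read 6.50 to 7.60 in WT and 7.76 to 8.35 in cKO, higher in all 4 cKO samples. Camp, the other tested marker of this list, also had higher means in cKO (4.39 against 4.21 at 0 h, 6.23 against 5.40 after LPS). S100a9, Ltf and Ngp, below the filter, had lower means in cKO at both times, and Retnlg was listed at 0. The mean of the list overlapped between genotypes (1.46 to 2.45 in WT, 1.66 to 2.33 in cKO). The mean of the 8 macrophage markers was 12.87 and 12.96 at 0 h and 13.50 and 13.70 after LPS in WT, and 12.37 and 12.54 at 0 h and 13.02 and 13.02 after LPS in cKO. Lyz2 was lower in all 4 cKO samples (18.1 to 18.5) than in the WT samples (19.0 to 19.3). So was Itgam (8.7 to 9.3 in cKO, 9.9 to 10.2 in WT). Adgre1, Csf1r, Mertk, Fcgr1 and Cd14 also had lower means in cKO at both times. Cd68 alone had higher means in cKO at both times, and read 14.43 to 14.73 in WT and 14.67 to 14.83 in cKO. The part of these markers' cells in the difference was not tested.

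Of the other pathway genes none was called at 0 h, 1 was called lower after LPS (1.54% of 65, where 2.46% of all tested genes were), and 2 averaged over both times (3.08%, where 4.14% were). Tax1bp1, a ubiquitin-binding receptor, was lower in cKO after LPS by 0.85 (adjusted p = 0.0156) and averaged by 0.60 (adjusted p = 0.0069). Tbk1 was lower by 0.45 averaged (adjusted p = 0.0222). These calls were lost without single libraries, for Tax1bp1 after LPS without WT LPS replicate 1 (0.0688), cKO LPS replicate 1 (0.104) or cKO LPS replicate 2 (0.157), and averaged without cKO LPS replicate 2 (0.0534), and for Tbk1 under 7 of 16 alternatives, up to 0.112. With 2 means per genotype Tax1bp1 had 0.0643.

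The authors' deposited table, over the same tested genes, calls 28.2% with LPS in WT and 27.4% in cKO. It calls 11 of the 42 in WT and 15 in cKO, and each of them was called here in the same direction. The reverse did not hold, since 12 calls in WT and 5 in cKO were made here alone. In WT these were Ulk1, Ulk2, Atg101, Becn1, Pik3c3, Atg2a, Atg12, Atg16l2, Atg4b, Gabarap, Nbr1 and Mtor. In cKO they were Ulk1, Atg2a, Atg12, Atg4b and Mtor. In that table none of the 42 is called at 0 h, where 1.52% of genes are called in either direction. After LPS it calls 3 higher, namely Wipi2 (log2 fold change 2.08), Map1lc3a (1.62) and Atg3, and none lower. There it calls 5.59% of genes in either direction.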

How the data were processed

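Polyadenylated RNA of 8 macrophage samples was sequenced. Tools named in the submitters' processing notes are HISAT2 2.1.0, CASAVA, featureCounts and DESeq2, with the genome GRCm38. The authors deposited 1 table of 55226 genes with rlog values on a log2 scale and, per the file headers, their own test results as log2 fold changes and p-values, raw and adjusted. Read counts were not used here, so depth and its precision are unknown. Positions came from GENCODE M21 and promoters from RefSeq. The 42 members, their roles and the gene lists were chosen with earlier results of these data known.

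Genes whose mean rlog reached 3 entered limma 3.58.1 in R 4.3.3 (4 group means, all 8 samples, variance trend, 4 residual degrees of freedom and 4.4 borrowed). The script was tested on simulated data. P-values were adjusted by Benjamini-Hochberg over 11543 genes, with a threshold of 0.05, for LPS within each genotype, for cKO against WT (at each time and averaged) and for the interaction. Members past the threshold were named, with values in every sample for up to 6 of the largest rises and 6 of the largest falls in each comparison. Of the other pathway genes, up to 3 in each direction were named. Alternatives changed the filter, variance trend, robustness, scaling, replicate block or groups fitted, or left out each sample; 1, chosen after seeing the data, averaged both times of each replicate number.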

Additional observations from a re-analysis of the deposited data

How the results depend on the processing

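Of the members called with LPS, 10 of 23 in WT and 11 of 20 in cKO kept their call under all 17 alternatives. Kept calls were not counted over all tested genes, so these counts have no background. Under quantile normalization Becn1 and Gabarap turned to -0.154 and -0.214 in WT and, not called in cKO before, to -0.25 and -0.49 there. Leaving out 1 sample, with the lone sample of its group assumed to vary like the other groups, gave 14 to 21 members called in WT and 13 to 21 in cKO, 0 to 1 at 0 h, 0 to 3 after LPS and 2 to 4 averaged over both times. Over all tested genes it gave 2684 to 4468 in cKO with LPS (main 4275), 2 to 128 between genotypes at 0 h (29), 0 to 582 after LPS (458) and 109 to 775 averaged (810). The interaction stayed at 0, with 751 genes at an unadjusted p under 0.05. Genes called at 0 h were 114 with no filter on low values, 9 with no variance trend and 0 with only the 2 groups compared. After LPS they were 208, 301 and, under quantile normalization, 235. With no filter the interaction gave 10 genes, the averaged comparison 359, and 1 member was called after LPS. The cause of these shifts was not tested.

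The labels do not say that a replicate number marks a mouse, and the deviations of replicate 1 correlated between the 2 times at 0.222 in WT and 0.311 in cKO (0.404 and 0.673 over the 42 genes), and between genotypes at -0.042 to 0.2. With the number as a replicate block, 72 of all tested genes were called at 0 h, 804 after LPS and 1077 averaged (489 higher, 588 lower). Members called were then 4 after LPS (3 higher, 1 lower) and 5 averaged (4 higher, 1 lower). Atg3 then passed after LPS (adjusted p = 0.0489) and averaged (0.0153), and Uvrag averaged (0.0469). If a number marks a mouse, the 4 libraries of a genotype are not independent. An alternative chosen after seeing the data averaged both times of each genotype and number first, which leaves 2 residual degrees of freedom: the averaged genotype comparison then called 30 genes and 0 members (limma), with 2095 genes and 7 members at an unadjusted p under 0.05.

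Without read counts, the changes that depth leaves undetectable cannot be stated, and rlog differences understate changes of genes with few reads.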

Other observations

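The 2 cKO replicates differed for few genes in the same way at both times. A gap of at least 1 log2 unit with the same sign at 0 h and after LPS was found in cKO for 29 of the 11543 tested genes with the higher value in replicate 2 and for 1 with the lower, and Atg3 was the 1 autophagy gene among them. In WT 12 genes were higher and 37 lower in replicate 2 by such a gap, with no autophagy gene among them. The gap of Atg3 was 2.26 at 0 h and 1.09 after LPS, and that of Uvrag was 1.29 and 0.90.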
